A study of Homo sapiens with 12 samples.

Results

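The 284 dense bins are the 100 kb segments of the human genome (hg19, chromosomes 1 to 22 and X) in which serine-phosphorylated STAT3 (pSTAT3) and BCL9 peak pairs were most crowded in the DCIS.COM cell line. They were selected on the measured lists themselves: for each of 10 libraries the share of its peak pairs with a midpoint in a bin was taken, the shares were averaged over the 10 libraries, and the top 1% of the 28392 bins that held any peak pair were kept. The level of a bin is given here as peak pairs per 10000 listed in a library, and its mean over the 10 libraries is what chose the bins, so those levels are a description and carry no test. The mean bin held 0.352 peak pairs per 10000. The last bins inside the limit were at 2.497 (chr12:96000001-96100000), 2.497 (chr15:83900001-84000000) and 2.497 (chr10:112100001-112200000), and the first bins outside it were at 2.496 (chr8:94800001-94900000), 2.492 (chr2:173100001-173200000) and 2.490 (chr8:101500001-101600000), so the limit cuts a continuous range of levels.

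DCIS.COM is an established basal-like breast cell line used as a model of ductal carcinoma in situ. Chromatin of cells with a control hairpin (NS, named Non-scrambled control in the labels) and of cells with a BCL9 hairpin (BCL9 KD) was precipitated with antibodies to pSTAT3 or BCL9, with 3 NS and 2 BCL9 KD libraries for each antibody, listed as biological replicates, and 1 NS library was made with an antibody to CTCF. Both conditions came from the same line grown in the same serum-containing medium, and whether each was 1 clone or a pool was not stated. The IgG library was not analysed here, and neither DNA copy number nor how far BCL9 protein had fallen was measured in these files, so a raised copy number of a segment and a raised occupancy cannot be told apart.

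In ChIP-exo, lambda exonuclease trims each precipitated DNA fragment up to the crosslinked protein, and a peak pair is a peak on the forward strand matched with one on the reverse strand, which together frame a crosslinked position. STAT3 is a transcription factor that cytokine and growth factor receptors switch on by phosphorylation, and BCL9 is a cofactor that has no DNA-binding domain and is known for joining beta-catenin to the Pygopus proteins in Wnt signalling. Regulatory factors often gather on enhancers that lie close to one another, and epithelial enhancers commonly carry binding sites of AP-1, the dimer of FOS and JUN proteins, and of TEAD, the DNA-binding partner of YAP and TAZ. CTCF binds its own motif and marks insulators and the feet of chromatin loops.

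The tallest sites shared by all 10 libraries are shown first for the densest bins. They are not typical of the bins. With the 100 bp windows of all 10 lists merged, 2.33% of the regions in the dense bins held every library. Another 69.2% held 1 library alone. From each of the 8 densest bins 1 window of 100 bp was taken on the forward strand of GRCh37, in the region with peak pairs of all 10 libraries whose tallest peak pairs took the highest mean share of tags. Capitals mark the AP-1 string TGANTCA on either strand (N is any base).
chr10:74082353-74082452, between genes, 10.1 kb from DNAJB12: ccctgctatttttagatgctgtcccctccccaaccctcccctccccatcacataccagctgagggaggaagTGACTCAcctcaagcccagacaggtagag
chr17:45382814-45382913, intron of ITGB3: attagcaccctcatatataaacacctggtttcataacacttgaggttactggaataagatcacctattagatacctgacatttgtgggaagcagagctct
chr1:209577455-209577554, between genes, 179.5 kb from CAMK1G: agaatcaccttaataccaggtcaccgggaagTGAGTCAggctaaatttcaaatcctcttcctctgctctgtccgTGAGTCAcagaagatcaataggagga
chr2:27934052-27934151, between genes, 15.8 kb from SLC4A1AP: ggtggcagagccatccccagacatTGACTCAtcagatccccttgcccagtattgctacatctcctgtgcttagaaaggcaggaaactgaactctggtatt
chr22:30606367-30606466, between genes, 30 kb from LIF: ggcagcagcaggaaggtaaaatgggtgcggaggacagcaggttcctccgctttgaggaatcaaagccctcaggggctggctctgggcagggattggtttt
chr15:63189273-63189372, between genes, 52.4 kb from TLN2: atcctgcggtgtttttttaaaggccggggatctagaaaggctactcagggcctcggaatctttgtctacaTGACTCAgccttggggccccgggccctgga
chr15:39481243-39481342, between genes, 391.9 kb from THBS1: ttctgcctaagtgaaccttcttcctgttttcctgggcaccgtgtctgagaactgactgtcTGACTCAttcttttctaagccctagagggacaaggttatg
chr3:149294130-149294229, intron of WWTR1: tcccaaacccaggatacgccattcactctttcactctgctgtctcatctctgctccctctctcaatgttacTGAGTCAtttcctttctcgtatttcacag

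Of these windows, 6 held the AP-1 string and 1 of those held it 2 times, and none held the STAT string TTCNNNGAA, the TEAD string GGAATG or the C/EBP string TTGCGCAA, each searched on both strands. Distances and gene parts are those of protein-coding genes in GENCODE v44 lifted to GRCh37. The tallest peak pair of the merged region around the window of chromosome 10 had 30, 48 and 48 tags in the NS pSTAT3 libraries, 25, 49 and 99 in the NS BCL9 libraries, 82 and 114 in the BCL9 KD pSTAT3 libraries and 60 and 83 in the BCL9 KD BCL9 libraries. In the WWTR1 intron the tallest peak pair had 60, 63 and 81 tags with pSTAT3 and 44, 61 and 73 with BCL9 in NS cells, and 119 and 107 and then 139 and 69 in BCL9 KD cells. A tag count is not scaled to depth, so these values show that each library had the site and not how libraries rank.

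The lists of the 10 libraries held 24728 to 493174 peak pairs, with the lowest listed peak pair at 3 to 9 tags depending on the library, and the CTCF list held 457119. Every dense bin held a peak pair of every pSTAT3 and BCL9 library, lay above the median of all bins in each of them, and 191 to 216 of the 284 bins were in the top 1% of a single library taken alone. Bins selected without a given library shared 256 to 278 bins with the 284.

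The bins took 1.00% of the genome's occupied bins and a far larger share of each list. In NS cells they held 10.6%, 8.62% and 6.37% of the pSTAT3 lists and 17.8%, 19.7% and 8.91% of the BCL9 lists. In BCL9 KD cells they held 6.24% and 5.98% of the pSTAT3 lists and 10.4% and 6.48% of the BCL9 lists. The CTCF list had 2.37% of its peak pairs there. When each library was measured in bins selected on the other 9, its share hardly moved: the highest, 19.7% in NS BCL9 library 2, became 18.5%. Bins chosen on the pSTAT3 lists alone held 6.39 to 16.8 times an even share of the BCL9 lists, and bins chosen on the BCL9 lists alone held 5.69 to 10.03 times an even share of the pSTAT3 lists.

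The share followed the length of the list: the shortest lists, NS BCL9 libraries 1 and 2 with 28690 and 24728 peak pairs, had the highest shares, and the longest, the BCL9 KD pSTAT3 libraries with 415624 and 493174, had the lowest. At equal length, with the 24728 strongest peak pairs of every list, the 10 libraries had 16.5% to 22.5% of their peak pairs in the dense bins and the CTCF library had 3.13%. The plot of shares by library shows the wide spread of the full lists and the narrow spread at equal length.

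**Figure D1:**
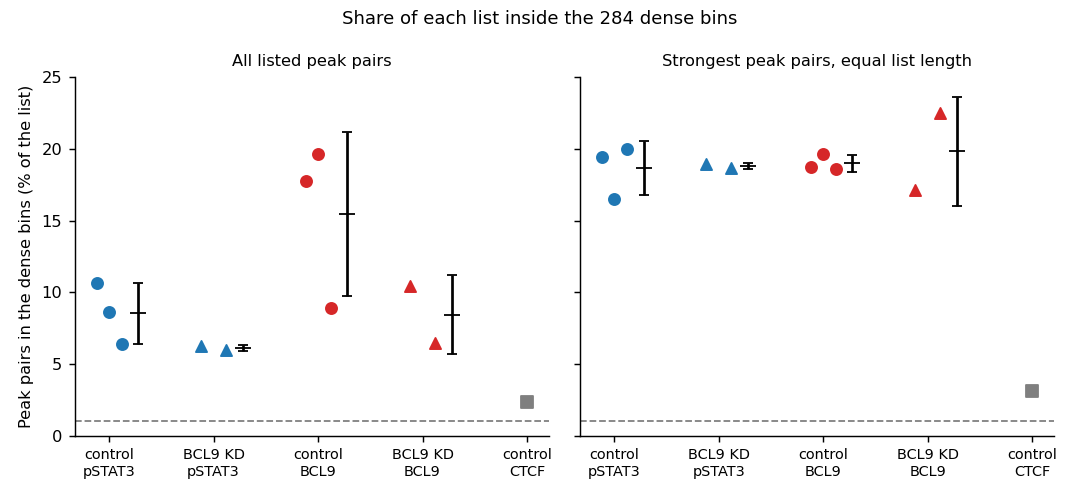
Percent of each list inside the 284 dense bins, by group, for all listed peak pairs (left) and for the 24728 strongest of each list (right); points are libraries, black bars are the mean ± SD, and the dashed line is the 1.00% of bins that are dense. The full pSTAT3 and BCL9 lists run from 5.98% to 19.7%, the equal-length lists from 16.5% to 22.5%, and CTCF lies at 2.37% and 3.13%.

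The share of a list in the dense bins enters the rule, so it is compared between groups as a description and with no test. The pSTAT3 share was 8.54 ± 2.14% (SD, n = 3) in NS and 6.11 ± 0.186% (n = 2) in BCL9 KD cells, and the BCL9 share was 15.5 ± 5.74% and 8.44 ± 2.78%. At equal list length the pSTAT3 shares were 18.7 ± 1.87% and 18.8 ± 0.217% and the BCL9 shares 19.0 ± 0.594% and 19.8 ± 3.79%, so the direction of both differences turned. Over both conditions the full lists gave 7.57 ± 2.02% for pSTAT3 and 12.7 ± 5.76% for BCL9 (n = 5 each), and equal length gave 18.7 ± 1.33% and 19.3 ± 1.99%. In each of these comparisons the difference of the means at equal length was smaller than the larger SD.

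The densest bin, chr10:74000001-74100000, held DDIT4, a stress-induced inhibitor of mTORC1, and part of DNAJB12, a chaperone of the endoplasmic reticulum, and had a mean of 15.7 peak pairs per 10000. Its levels were 14.5, 10.3 and 8.07 in the NS pSTAT3 libraries, 34.5, 38.8 and 13.4 in the NS BCL9 libraries, 7.002 and 6.975 in the BCL9 KD pSTAT3 libraries and 15.1 and 7.96 in the BCL9 KD BCL9 libraries. The short BCL9 lists were highest, and the BCL9 KD values lay within or below the NS range. It was also the bin with the most regions shared by all 10 libraries, 15 in all, and its densest 5 kb held only 17.2% of its peak pairs.

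The bin chr17:45300001-45400000 ranked 2 and held ITGB3, the integrin beta 3 subunit and one of the genes the study followed, beside MYL4, a myosin light chain. It had 9.08, 7.30 and 4.65 peak pairs per 10000 in the NS pSTAT3 libraries, 20.9, 22.6 and 7.66 in the NS BCL9 libraries, 3.97 and 3.77 in the BCL9 KD pSTAT3 libraries and 8.68 and 5.11 in the BCL9 KD BCL9 libraries. Both BCL9 KD pSTAT3 values were below the 3 NS values, and the BCL9 groups overlapped. The BCL9 KD pSTAT3 lists were also the longest, and shares in the dense bins followed list length. With pSTAT3, 3 of the 284 dense bins had a higher fitted level in KD on the full lists, against 154 at equal length. A lower KD level on the full lists was thus not particular to this bin.

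The bin of the IL6-family cytokines LIF and OSM, which signal to STAT3 through gp130, was chr22:30600001-30700000 at rank 5, and it also held CASTOR1, an arginine sensor of mTORC1, and TBC1D10A. Its levels were 8.07, 7.10 and 4.01 with pSTAT3 and 15.0, 16.2 and 7.40 with BCL9 in NS cells, and 4.60 and 4.06 and then 8.06 and 5.08 in BCL9 KD cells. The NS and BCL9 KD values overlapped for both antibodies. The bin of WWTR1 (TAZ, a partner of TEAD) and TM4SF4 at rank 8, chr3:149200001-149300000, had 6.31, 6.08 and 2.59 with pSTAT3 and 15.3, 12.1 and 4.77 with BCL9 in NS cells, against 2.65 and 2.76 and then 5.55 and 3.54.

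The rest of the 10 densest were chr1:209500001-209600000 (8.40 per 10000; no protein-coding gene, 157 kb from CAMK1G), chr2:27900001-28000000 (8.24; SLC4A1AP and MRPL33, a mitochondrial ribosomal protein), chr15:63100001-63200000 (6.75; the end of TLN2, which links integrins to actin), chr15:39400001-39500000 (6.44; no gene, 373 kb from THBS1), chr1:234700001-234800000 (5.85; IRF2BP2, a transcriptional corepressor) and chr14:68600001-68700000 (5.80; an intronic part of RAD51B, a recombination gene). Their order does not hold between neighbours: libraries of 1 bin ranged over more than the gap to the next, as in the RAD51B bin, at 3.36, 3.14 and 2.57 with pSTAT3 and 13.3, 19.0 and 4.50 with BCL9 in NS cells.

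**Figure D2:**
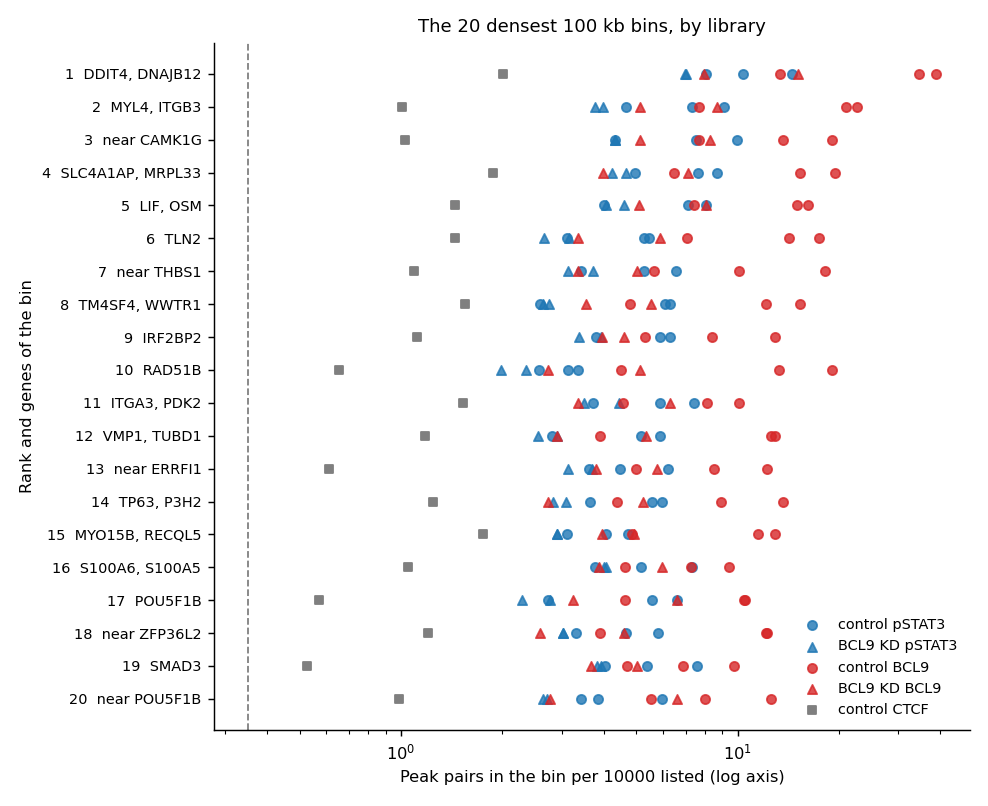
Peak pairs per 10000 listed (log axis) in the 20 densest bins, named by up to 2 genes or the nearest gene, with 1 point per library; the dashed line is the mean of all bins. In the DDIT4 bin libraries run from 6.98 to 38.8 and CTCF lies at 2.01, below all 10.

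Peak pairs were not spread evenly inside the bins. The densest 5 kb of a bin held a median of 32.4% of its peak pairs (range 12.9% to 85.3%), and a median of 2 of its 20 parts of 5 kb held 50% of them. At the concentrated end, chr13:80500001-80600000, which has no gene and lies nearest to SPRY2, had 85.3% in 5 kb. At the even end, chr1:145000001-145100000 with PDE4DIP and SEC22B had 12.9%. Both were picked after their values were seen, and the second lies in a stretch of near-identical copies, where the assignment of reads is uncertain.

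Where windows of all 10 lists were merged, 783 regions in the dense bins held a peak pair of every library, 2.76 a bin, against 2125 in the other bins, 0.0756 a bin, so 26.9% of the 2908 such regions lay in 1.00% of the bins. A bin had 0 to 15 of them (median 3), and 8 of the 284 bins had none. The rule chose bins crowded in these same 10 lists, and crowded windows merge more readily. More such regions inside follow from that choice, so these counts are a description. Peak pairs also overlapped more inside: a merged window stood for 1.77 to 2.43 peak pairs inside and 1.22 to 1.76 outside, and with each merged window counted once the dense bins held 3.90% to 14.5% of a list.

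The 284 bins formed 246 separate segments, 213 of them single bins, and 71 bins (25%) lay in 33 runs of adjoining bins, none longer than 3 bins. Dense bins still lay near one another, as 1.00% of all bins were dense: 109 of the 284 had another within 3 bins and 153 within 10 bins. The run with the highest summed level was chr8:128200001-128500000 (16.1 per 10000), around POU5F1B, a retrogene in the gene desert before MYC. Its sums were 16.4, 15.1 and 8.34 in the NS pSTAT3 libraries, 28.6, 35.6 and 15.2 in the NS BCL9 libraries, 7.89 and 7.04 in the BCL9 KD pSTAT3 libraries and 18.1 and 8.80 in the BCL9 KD BCL9 libraries. Another dense bin, chr8:128800001-128900000 at rank 22, lay 44.8 kb from MYC, and was picked after its values were seen.

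The DDIT4 bin, a segment of 1 bin, came next by sum. It was followed by chr15:63100001-63400000 with TLN2 and the tropomyosin gene TPM1 (14.8), chr1:234600001-234900000 with TARBP1 and IRF2BP2 (14.4) and chr14:51800001-52100000 with FRMD6, a FERM domain protein tied to the Hippo pathway (10.8). The TLN2 and TPM1 run held 14.3, 11.5 and 7.40 with pSTAT3 and 36.3, 28.7 and 14.6 with BCL9 in NS cells, and 7.34 and 6.75 and then 12.8 and 8.26 in BCL9 KD cells. Genes met by 3 dense bins were PRKCH, RAD51B and TP63, and the bins of TP63, the master regulator of basal epithelium, ranked 14, 142 and 259.

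The 477 bins next to a dense bin and not dense themselves were raised as well: their median rank was 3181, 221 of them (46.3%) were in the top 10% of all bins, and 22 ranked below the middle of all bins. Relative to the median of all bins, the median pSTAT3 level went from 11.8 times in the dense bins to 3.51 times at 100 kb, 2.53 at 200 kb and 1.61 at 2000 kb. BCL9 went from 27.6 times to 5.34, 3.62 and 1.91. CTCF, which the rule did not use, went from 2.62 times to 2.08, 1.85 and 1.46, a smaller step at the bin and a similar level far from it.

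**Figure D3:**
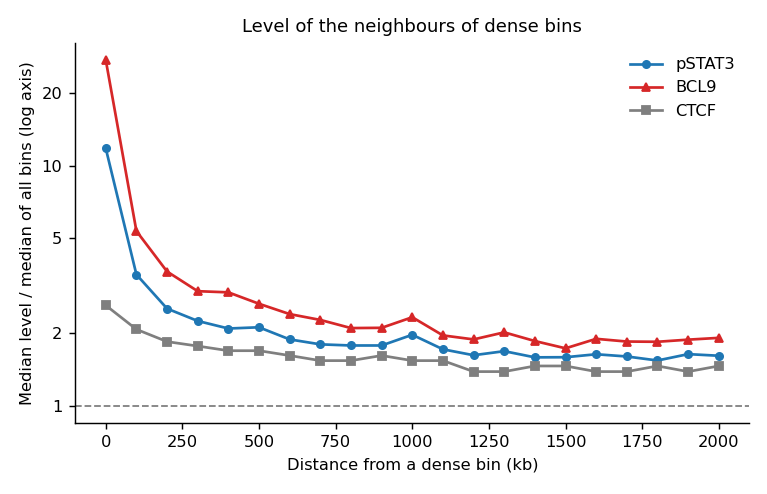
Median level of non-dense bins by distance from a dense bin (kb), divided by the median of all bins (log axis), for pSTAT3 (blue), BCL9 (red) and CTCF (grey); distance 0 is the dense bins themselves. BCL9 falls from 27.6 to 5.34 within 100 kb, pSTAT3 from 11.8 to 3.51 and CTCF from 2.62 to 2.08.

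By chromosome, 17 had the highest share of dense bins, 26 bins or 3.32% of its own, followed by 15 (2.08%), 3 (1.95%), 14 (1.93%) and 1 (42 bins, 1.84%). Chromosome 6 had 2 and X had none of its 1515 bins. Dense bins had a median GC content of 43.9% against 39.8% in the other bins, and fewer lacked a protein-coding gene (67 bins, 23.6%, against 34.1%) or a transcription start (103 bins, 36.3%, against 52.7%). Their whole 100 kb held a median of 36 AP-1 strings against 33, 33 STAT strings against 37 and 62 TEAD strings against 58, which were small differences beside the 5th to 95th percentile of the other bins (22 to 46 for AP-1).

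CTCF was measured in a single library and has no replicate error. Its median in the dense bins was 0.744 per 10000 against 0.284 over all bins, 269 of the 284 bins were above that median, and their median percentile was 90.7 (26.9 to 99.99). The limit of the 284 densest CTCF bins lay at 58 peak pairs, and 40 dense bins were above it and 2 tied with it. Among the 24728 strongest CTCF peak pairs 118 of the 284 bins (41.5%) had none, against 69.3% of all bins. The CTCF list was thus also raised in these bins, with 2.37% of its peak pairs against at least 5.98% in the lists of the other antibodies.

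Genes were read from lists chosen with earlier results of these data known, so their counts are a description and are set beside all protein-coding genes, of which 420 of 20090 (2.09%) overlapped a dense bin and 338 (1.68%) started in one. Of the 24 genes of the STAT3 pathway and its targets 5 were there: LIF (rank 5), the survival factor MCL1, the NF-kB cofactor BCL3, the STAT3 feedback inhibitor SOCS3 and the receptor IL6R, whose bins ranked 176, 187, 257 and 261. Of the basal epithelial genes TP63, S100A2 (rank 16), the laminin chain LAMB3 (rank 65) and the keratin KRT15 (rank 64) were there. Of 12 luminal genes KRT19 alone was, in the same bin as KRT15.

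Of 15 integrins 4 overlapped a dense bin: ITGB3, ITGA3 (rank 11), the epithelial ITGB6 and the leukocyte subunit ITGB2. Of 18 EGF receptor, ligand and MAPK feedback genes 5 did, the ligands HBEGF and EREG, the phosphatase DUSP6, the inhibitor SPRED2 and MAPK6. YAP, TAZ and TEAD pathway genes gave 3 of 15 (WWTR1, AMOTL2 and the kinase NUAK2), AP-1 factors 2 of 12 (FOSB, FOSL2), TGF-beta and EMT genes 2 of 17 (SMAD3 at rank 19, TGFB2), Wnt genes 2 of 18 (PYGO2, a Pygopus protein that binds BCL9, and CTNNBIP1, an inhibitor of beta-catenin), plasminogen and metalloproteinase genes 1 of 14 (PLAU), and the genes the study followed 2 of 9 (ITGB3, CD44). The lists of 16 NF-kB and inflammatory genes, 12 housekeeping genes and 24 genes of other tissues had none. At the 2.09% of all protein-coding genes, lists of this size would often hold none, so these counts show no lack. The counts by transcription start were the same for each list.

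All 10 libraries entered the rule, and NS BCL9 libraries 1 and 2 weighed most in the mean (their medians in the dense bins were 5.58 and 6.07 per 10000, those of the other 8 libraries 2.03 to 3.45), so the directions of the per-bin differences below are a description of the chosen bins. Bin by bin, the effect of BCL9 KD was tested with limma on the peak pairs of all 23578 bins with at least 20 in the 10 lists, with p-values adjusted by Benjamini-Hochberg over all of them. In the pSTAT3 lists no dense bin was called, with 0% called over all bins. The median log2 difference of KD and NS in the dense bins was -0.38 (-0.96 to 0.05, median SE 0.35), against 0.11 over all bins, and 11 of the 284 had an unadjusted p under 0.05, where all bins gave 3.96%. In the BCL9 lists no dense bin was called either, and 0% of all bins were called. Its median was -0.72 (-1.58 to 0.54, median SE 0.41) with 112 dense bins at an unadjusted p under 0.05, where all bins gave 5.98%. The difference of the KD effect between the antibodies called none of the 284, with 0% over all bins, 2 dense bins at an unadjusted p under 0.05 and 3.83% of all bins. Without NS BCL9 library 3, 70 dense bins were called lower in the BCL9 lists, beside 0.556% of all bins called. With a block for the replicate number, 53 dense bins were called lower in the pSTAT3 and 130 in the BCL9 lists. Beside them 0.267% and 0.925% of all bins were called.

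At equal list length 3502 bins could be tested. The medians over dense bins moved to 0.04 for pSTAT3 and 0.06 for BCL9, again with none of the 284 called in either antibody or for the difference between them. Over all bins 0.0571%, 0% and 0% were called. At equal length unadjusted p-values under 0.05 were found in 23, 31 and 17 of the dense bins, and in 8.65%, 9.19% and 5.68% of all bins. The lower KD medians of the full lists were thus not seen at equal length, where the medians over all bins were 0.01, 0.11 and 0.16. With median-of-ratios scaling of the full lists, which moved the medians over all bins to 0.24 for pSTAT3 and 0.26 for BCL9, those over dense bins were -0.19 and -0.35. The simulated check of the fit on the full lists planted changes among bins of high level, not the dense bins alone, with an assumed spread. It recovered 11% of changes planted at 2-fold and 98% at 4-fold (pSTAT3). A KD effect of 2-fold in single bins would mostly have been missed in that simulation. How often it would be missed in the dense bins was not measured.

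The antibodies were compared in the same way. On the full lists none of the 284 dense bins was called, beside 0.267% of all bins, though 125 had an unadjusted p under 0.05 where all bins gave 10.6%, and the smallest adjusted p was 0.0527 (limma). Leaving out NS BCL9 library 3 gave 96 called dense bins, beside 1.62% of all bins, and leaving out NS BCL9 library 1 gave 7, beside 0.373%. At equal list length the median log2 difference was 0.06 in the dense bins and -0.20 over all bins, and 114 of the 284 were called (40.1%), near the 42.7% of all 3502 bins tested, so the dense bins were not called more often than bins at large. Of them 67 (23.6%) were higher in the BCL9 lists, where 17.1% of all bins were, and 47 (16.5%) were higher in the pSTAT3 lists, where 25.6% of all bins were. The full and the equal lists answer different questions, since the length of the list enters the first.

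The BCL9-higher bin with the steepest difference was chr19:42700001-42800000, which holds POU2F2, the ETS repressor ERF, the transcriptional repressor CIC and the Wnt kinase GSK3A. Among the strongest peak pairs it had 2, 4 and 0 in the NS and 0 and 0 in the BCL9 KD pSTAT3 lists, and 18, 20 and 11 in the NS and 7 and 15 in the BCL9 KD BCL9 lists. The means were 1.20 ± 1.79 and 14.2 ± 5.26 (SD, n = 5 each, log2 difference 3.82, SE 0.54). The bin of THBS1, a secreted glycoprotein that activates TGF-beta, at chr15:39800001-39900000, held 3, 1, 1, 0 and 2 with pSTAT3 and 18, 7, 7, 6 and 8 with BCL9 in the same order of libraries (log2 difference 2.54, SE 0.54). The bins of SRP9 and EPHX1, FHDC1, KCNIP1 and GABRP, and GRAMD2B were the others named, at log2 differences of 2.73, 2.61, 2.45 and 2.27. In each of these 6 bins the 5 pSTAT3 lists together held 6 to 19 strongest peak pairs, under the minimum of 20. These bins were therefore tested only through the BCL9 lists in which they are high, and their differences are a description. The same held for 10 of the 67 bins called higher in the BCL9 lists and for none of the 47 called higher in the pSTAT3 lists.

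Of the pSTAT3-higher bins chr5:142600001-142700000, with ARHGAP26 and the glucocorticoid receptor gene NR3C1, differed most. It had 19, 19 and 28 strongest peak pairs in the NS and 34 and 32 in the BCL9 KD pSTAT3 lists, and 7, 4 and 13 in the NS and 12 and 10 in the BCL9 KD BCL9 lists. The means were 26.4 ± 7.09 and 9.20 ± 3.70 (n = 5 each, log2 difference -1.54, SE 0.26, limma adjusted p = 0.000122). The bins of BCL10 and DDAH1, of the lactate transporter SLC16A3 and CSNK1D, of DCBLD2, of the stretch next to BLID and of LTBP2 followed, at log2 differences of -1.36, -1.32, -1.31, -1.27 and -1.25. All were picked for the size of their difference, so a separation of the antibodies in them follows from the choice. Differences to the pSTAT3 side were smaller than those to the BCL9 side in these named bins.

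**Figure D4:**
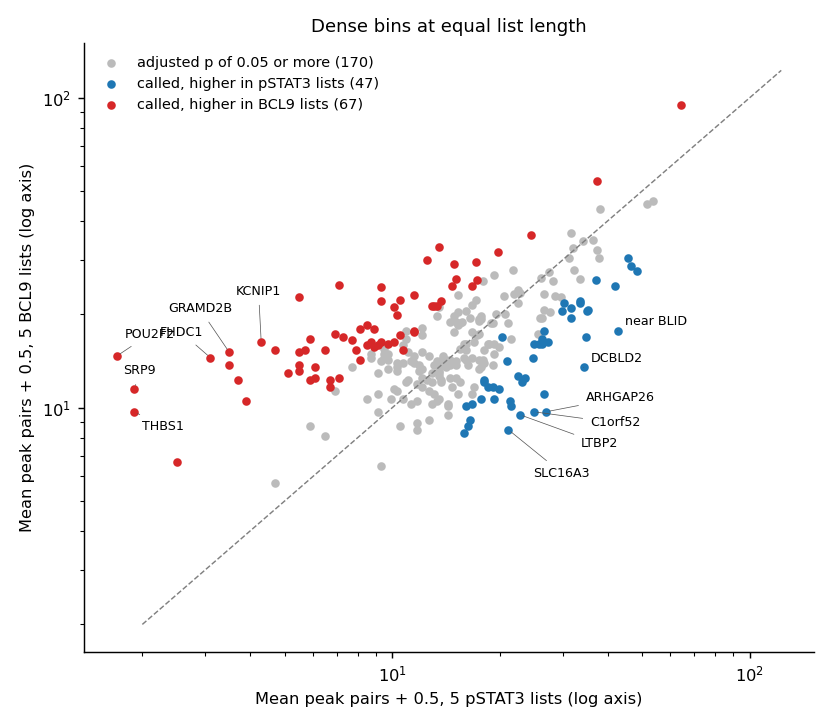
Mean number of strongest peak pairs per dense bin plus 0.5, in 5 pSTAT3 (x) and 5 BCL9 lists (y, both log axes) at equal list length; red and blue are the 67 and 47 bins called higher in BCL9 and in pSTAT3 lists, grey the other 170, and the dashed line is equality. Labelled bins are those named, with POU2F2 at 1.20 pSTAT3 and 14.2 BCL9 peak pairs (before 0.5 was added).

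Peak pairs inside the dense bins had more tags than those outside. The rule did not count tags, but a peak pair was listed only from 3 to 9 tags upward, depending on the library. The number of peak pairs that chose the bins and their tags are therefore linked, and the p-values below are no independent support. The median was 7 to 12 tags inside and 5 to 10 outside, and the log2 ratio was 0.42 ± 0.25 (SD, n = 10), with every one of the 10 libraries above 0 (p = 0.00195 in a two-sided exact permutation that flips signs of libraries, which can give no smaller p). At equal list length it was 0.20 ± 0.07 with the same count and p.

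The AP-1 string was held by 10.98% to 20.7% of windows of 100 bp around peak pairs inside the dense bins and by 8.39% to 25.1% outside, where flanking windows of the same length held it in 3.73% to 3.93% and 3.29% to 3.49%. The difference of inside and outside was 1.23 ± 2.41 percentage points, above 0 in 9 of 10 libraries (exact permutation p = 0.146). NS pSTAT3 library 1 was the exception. Without it the difference was 1.94 points, which is given with no test because its sign was seen first. Leaving out any other library gave 0.99 to 1.32 points (exact permutation p = 0.152 to 0.277). Divided by its share in the flanking windows, the string was lower inside in 6 of 10 libraries, and in 10 of 10 at equal list length.

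At equal list length the sign turned, with a difference of -7.58 ± 7.66 points over 10 libraries (exact permutation p = 0.0176). In the strongest pSTAT3 peak pairs the string was held by 29.8%, 29.3% and 33.4% inside and 45.8%, 38.3% and 48.1% outside in NS cells, and by 34.7% and 34.8% inside and 50.8% and 51.0% outside in BCL9 KD cells. All 5 pSTAT3 libraries were thus lower inside. The BCL9 libraries went both ways, with 14.8%, 14.6% and 16.4% inside and 13.0%, 12.7% and 19.0% outside in NS cells, and 17.8% and 19.6% against 19.0% and 23.5% in BCL9 KD cells. With 1 peak pair per merged window the difference was -7.60 points (exact permutation p = 0.0117).

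**Figure D5:**
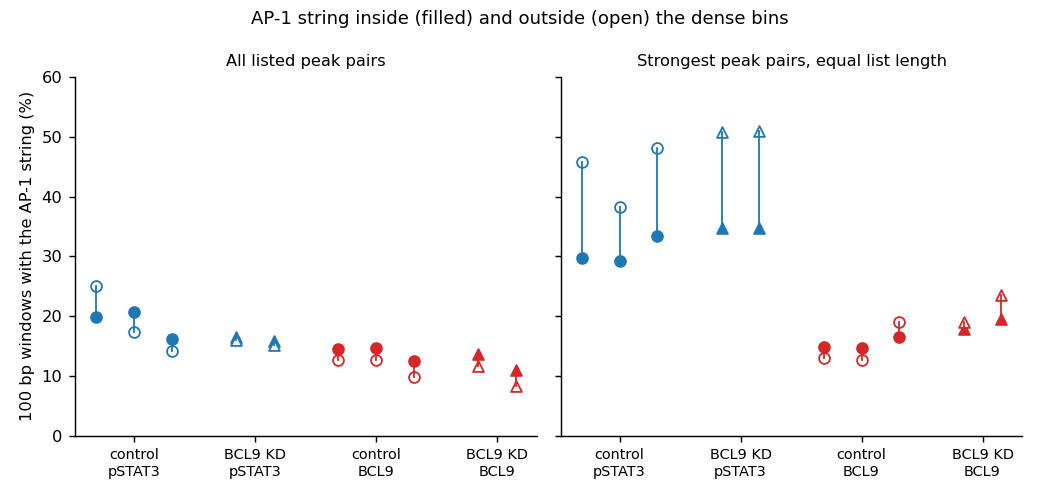
Percent of 100 bp windows with the AP-1 string inside (filled) and outside (open) the dense bins, 1 pair of points per library, for all listed peak pairs (left) and the 24728 strongest (right). At equal list length the 5 pSTAT3 libraries lie at 29.3% to 34.8% inside and 38.3% to 51.0% outside.

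Of the other strings, TEAD was in more windows inside, by 1.47 ± 0.46 points in 10 of 10 libraries (exact permutation p adjusted over 4 strings = 0.00781; 8.52% to 11.9% inside and 6.80% to 10.6% outside), and by 0.65 ± 0.52 points at equal length. Flanking windows held it more often inside as well (5.62% to 6.16% against 5.38% to 5.56%), and divided by the flanks it was higher inside in 9 of 10 libraries on the full lists and in 5 of 10 at equal length. STAT was in 3.16% to 3.82% of windows inside and 3.10% to 3.57% outside, a difference of 0.19 ± 0.16 points (9 of 10 libraries; adjusted exact permutation p = 0.0156). The STAT difference was 0.36 ± 0.26 points at equal length (10 of 10; adjusted exact permutation p = 0.00391). Divided by the flanks STAT was higher inside in 10 of 10 libraries on both. The C/EBP string was rare, at a mean of 0.158 copies per 100 kb in the dense bins and 0.109 in the other bins. All libraries read the same few copies, so its tests over libraries do not rest on independent observations. C/EBP differed by 0.03 ± 0.04 points (adjusted exact permutation p = 0.0625) and by 0.05 ± 0.05 points at equal length (adjusted exact permutation p = 0.0273). Its difference was 0.05 ± 0.02 points in bins chosen without the library measured (10 of 10 libraries; adjusted exact permutation p = 0.00391). In such bins the STAT difference was 0.175 ± 0.182 points (8 of 10; adjusted exact permutation p = 0.026). It was above 0 there in 5 of 5 pSTAT3 and 3 of 5 BCL9 libraries. TEAD differed by 1.497 ± 0.496 points there (10 of 10; adjusted exact permutation p = 0.00391). AP-1 differed by 1.28 ± 2.37 points (9 of 10; adjusted exact permutation p = 0.123).

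Windows within 1 kb of a protein-coding transcription start were fewer inside the dense bins, by 2.35 ± 2.14 points, in 10 of 10 libraries (exact permutation p = 0.00195). In pSTAT3 lists they made up 6.03% to 6.80% inside and 6.47% to 9.02% outside, and in BCL9 lists 5.94% to 6.61% inside and 7.99% to 12.3% outside. At equal length the difference was -2.60 ± 2.84 points (exact permutation p = 0.0254), and it was -5.09 ± 1.35 points in the BCL9 and -0.12 ± 0.94 points in the pSTAT3 libraries. Dense bins thus held more starts per bin, yet on the full lists a smaller share of their windows lay at starts. At equal length the share was lower inside in all 5 BCL9 libraries, but higher inside in 2 of 5 pSTAT3 libraries. The rule chose bins with many windows, so this share is not independent of the choice.

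Inside the dense bins 56.4% to 89.9% of windows overlapped a window of the other antibody in the same condition by 1 bp or more, against 21.2% to 70.1% outside. The windows of the other antibody also covered far more of the bases inside (4.17% to 10.3%) than outside (0.491% to 2.30%). Divided by that cover, the overlap was lower inside in 10 of 10 libraries, by a log2 ratio of -1.72 ± 0.36, and by -3.49 ± 0.18 at equal length. A share has an upper limit of 100%, which the covered share does not, so the ratio must fall where cover is high. The rule itself raised the cover inside by choosing crowded bins. These ratios are therefore a description and are given with no test.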

How the data were processed

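The data were the lists of peak pairs the authors deposited, 1 per ChIP-exo library, in hg19 (no peak pair ended beyond a GRCh37 chromosome end); the files name the pairing program cwpair, with no aligner named (not given in the sources used here). Each deposited score is a signal equal to whole tags times a step of each library, within 3.94e-07 of a tag. Lists of NS replicate 1 of both antibodies came from 1 sequencing run, the others from 3. Counts per bin were tested with limma 3.58.1 (voom) in R 4.3.3 with list length as library size, 4 group means and calls at an adjusted p under 0.05, and the fit was tested on simulated data; values the rule did not use were compared with exact permutation tests (Python 3.11.15), whose p-values measure the spread between these libraries. Equal list length kept the strongest 24728 peak pairs, ties broken at random (seed 7). Per-bin fits at equal length, fits without the single-run controls and 1 peak pair per merged window were added after the data were seen; further alternatives were the median share, bins shifted by 50 kb, 9 or more tags, other scaling, weights or filters, and leaving out libraries. Named were the 10 densest bins, the 5 segments of highest sum, up to 6 called bins per direction, list members in dense bins and 3 bins on either side of the limit. The bins and gene lists were chosen with earlier results of these data known. Permutation tests of the share in the dense bins were run but are not given, because that share chose the bins. A count over the basal epithelial genes is not reported here.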

Additional observations from a re-analysis of the deposited data

Results flagged for a closer look

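Among 8 comparisons of the inside against outside differences of the dense bins between the BCL9 and the pSTAT3 lists, 2 passed after adjustment over the 8, both at equal list length. The share of windows with the AP-1 string differed by -14.4 ± 3.09 points in the pSTAT3 and -0.78 ± 2.59 points in the BCL9 libraries (SD, n = 5 each), a gap of 13.6 points (exact permutation p = 0.00794, the smallest it can give, adjusted p = 0.0317). The share of windows near a transcription start differed by -0.12 ± 0.94 and -5.09 ± 1.35 points, a gap of -4.97 points (exact permutation p = 0.00794, adjusted p = 0.0317). On the full lists the same gaps were 1.98 points (exact permutation p = 0.183, adjusted p = 0.243) and -3.02 points (exact permutation p = 0.0238, adjusted p = 0.0635). No group held 4 samples, so single libraries were not examined for distance from the others.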

How the results depend on the processing

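The length of the lists moved several results: at equal list length only 158 bins were chosen, of which 144 were among the 284, the KD difference of the share in the dense bins went from -2.43 to 0.13 points for pSTAT3 and from -7.01 to 0.82 points for BCL9, the AP-1 difference went from 1.23 to -7.58 points (-7.60 with 1 peak pair per merged window), and the antibody contrast called 114 dense bins in place of none. That contrast also called 21 with median-of-ratios scaling (0.865% of all bins), 52 with peak pairs of 9 or more tags (18.3%, beside 17.3% of all bins), 15 without the single-run controls (0.632% of all bins) and 0 to 96 with 1 library left out (7 without NS BCL9 library 1, 96 without library 3); at equal length leaving out 1 library gave 73 to 108. The BCL9 KD contrast called 1 with 9 or more tags and 0 to 70 with 1 library left out, the 70 being without NS BCL9 library 3; the cause was not tested. With the replicate block 53 (pSTAT3 KD), 130 (BCL9 KD), 106 (antibody) and 0 (difference of KD effects) dense bins were called, beside 0.267%, 0.925%, 1.93% and 0% of all bins. Deviations of same-numbered libraries correlated at -0.04 to 0.13, and those of other numbers at -0.13 to 0.12. With 2 KD libraries per group the deviations mirror each other, so this check cannot tell whether the numbers pair libraries. Number 3 exists in NS alone, so its block brings no comparison of KD and NS. Leaving out 1 library kept 256 to 278 dense bins, KD share differences of -3.52 to -1.38 (pSTAT3) and -10.3 to -4.90 points (BCL9), an antibody difference of 3.33 to 6.62 points, AP-1 differences of 0.99 to 1.94 points, tag ratios of 0.37 to 0.45, promoter differences of -2.59 to -1.91 points and partner ratios of -1.78 to -1.65. Replicates were 2 or 3 per group, and copy number, IgG signal and mappability were not used.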
